A study of Mus musculus with 11 samples.

Results

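The passage from the DN2 to the DN3 stage was followed in mouse thymocytes that lack the full-length RNA-binding protein Arpp21. The comparison sets 3 RNA-seq libraries of DN3 Arpp21 KO cells against 2 libraries of DN2 Arpp21 KO cells. These 5 of the 11 libraries of the series were chosen by their labels for stage and genotype. The other 6 libraries, 3 DN2 WT and 3 DN3 WT, went through the same stages with intact Arpp21 and were used as the reference transition. All mice were labelled C57BL/6J, no group was treated, and both stages were sorted by flow cytometry, after depletion of CD4 and CD8 cells, on the surface proteins CD44 and CD25. The KO line is a germline CRISPR deletion of exon 5 of Arpp21, which breaks the reading frame of the long isoform and does not target the short isoform. The gene also hosts a microRNA, miR-128-2. Ages and sexes were not labelled per library. The labels do not say whether libraries of a group came from separate animals, so p-values measure only the spread between these libraries, which may be technical.

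CD4-CD8- double-negative thymocytes pass through ordered stages. DN2 cells carry CD44, CD25 and the stem cell factor receptor Kit, still transcribe genes of blood progenitors, and can give rise to other lineages. Under Notch signals they shut down these genes, commit to the T lineage and become DN3 cells, in which the RAG recombinase assembles the T cell receptor beta (Tcrb) gene. The beta chain then pairs with pre-T alpha and the CD3 chains as the pre-TCR, and a signal from it lets the cells leave the DN3 stage.

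The 5 KO libraries held 14531762 to 63109504 estimated counts. DN2 KO replicate 2 and DN3 KO replicate 3 stood apart from the other 9 libraries. Against the mean of the libraries of their stage that lack this trend, genes with short transcripts were higher in both and genes with long transcripts were lower, with medians from 1.21 down to -1.37 (log2) across 5 length classes in DN2 KO replicate 2 and from 0.54 to -0.74 in DN3 KO replicate 3. Cytosolic ribosomal protein genes, which are short, summed to 193300 and 135400 CPM (counts scaled to library size) in these libraries and to 36470 to 58620 CPM in the other 9. Across genes, DN2 KO replicate 2 correlated more closely with DN3 KO replicate 3 (r = 0.842) than with the other DN2 KO library (r = 0.629). Because each stage holds 1 such library, the counts are given for the 5 libraries and again without these libraries, and a member's value without them is given where a call changes or where a called member with more than 3 counts at both stages in both fits moves by over 1.5 times. In that fit DN3 KO replicates 1 and 2 stand against DN2 KO replicate 1 alone and that library is assumed to vary like the other groups.

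Of 13780 genes tested, 191 rose from DN2 KO to DN3 KO (1.39%) and 403 fell (2.92%) by edgeR's quasi-likelihood test at a Benjamini-Hochberg adjusted p under 0.05. In all 594 called genes, every DN3 KO library lay on the same side of both DN2 KO libraries. Non-overlap alone was much more frequent: 1843 genes (13.4%) were higher and 1601 genes (11.6%) lower in every DN3 KO library, and 1652 and 1198 of these did not pass the test. An exact permutation test of 3 against 2 libraries cannot go below p = 0.2. On TPM, the deposited unit that also divides by transcript length, limma called 260 genes higher and 239 lower, and 1996 and 1079 genes did not overlap.

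Without the libraries with the length trend, 313 of 14563 genes rose (2.15%) and 583 fell (4%). These calls held 136 of the 191 rises (71.2%) and 331 of the 403 falls (82.1%), and none of the 594 genes changed direction. A stricter reading asks that a call survive the removal of any 1 of the 5 KO libraries. It was met by 77 of the genes that rose (40.3%) and 172 of those that fell (42.7%), and all of these were also called without both libraries. The calls rest on a spread estimated over all 11 libraries: the 5 KO libraries alone gave 0 calls with edgeR, although 1189 of 12786 genes had an unadjusted p under 0.05, and 626 calls with DESeq2.

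Genes of the pre-TCR and its CD3 partners rose in part. Of the 7 genes of the pre-TCR complex, 4 rose and none fell, where 1.39% and 2.92% of all genes tested did so, with a list median of 2.10 (log2) against 0.03 over all genes tested. Ptcra, which encodes pre-T alpha (chromosome 17, 46755663 to 46763712, minus strand, GRCm38), was at 2.52 and 11.7 CPM in DN2 KO and at 484.5, 432 and 605 CPM in DN3 KO. All DN3 KO values were far above both DN2 KO values, and on the log2 scale the rise was 6.15 with an SE of 0.77 (adjusted p = 0.00203). The values that follow after ± are such SEs. Cd3d, a CD3 chain, was at 7.31 and 51.9 CPM in DN2 KO and at 506, 488 and 1149 CPM in DN3 KO. The rise was 4.59 ± 0.89 (adjusted p = 0.0169). Cd3e, the CD3 chain shared by both CD3 dimers, was at 125 and 45.8 CPM and then at 1238, 1234 and 964 CPM (3.75 ± 0.49, adjusted p = 0.00253). These 3 genes were called in each fit that left out 1 of the 11 libraries. Without the libraries with the length trend, the rise was larger for Ptcra (7.50 ± 0.54) and Cd3d (6.08 ± 0.62).

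Cd3g, the partner of Cd3e in the other dimer, was the weakest of the 4, with 188.5 and 498 CPM in DN2 KO and 1325, 1266 and 1836 CPM in DN3 KO (2.10 ± 0.50, adjusted p = 0.043). Its groups did not overlap, but the call was lost in 8 of the 11 fits that left out 1 library, namely DN2 WT replicate 1 or 2 or any DN3 WT or DN3 KO library (adjusted p = 0.055 to 0.0967). Without the libraries with the length trend it was 2.77 (adjusted p = 0.00718). Cd247, the zeta chain, did not overlap either, at 87.2 and 145 CPM against 172, 147 and 190 CPM, and did not pass the test (0.55, adjusted p = 0.293), but was called without the libraries with the length trend (0.86, adjusted p = 0.0122), which made 5 of 7 in that fit. The constant segments Trbc1 and Trbc2 overlapped between the stages, with Trbc1 at 953 and 1504 CPM in DN2 KO and at 764, 729 and 1138 CPM in DN3 KO. Counts over the constant region were high in both DN2 KO libraries, and they cannot tell a rearranged from an unrearranged Tcrb transcript.

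Ptcra is a textbook target of Notch and of E proteins. The promoters of the genes that rose were therefore searched for the letters TGGGAA (the core bound by RBPJ, the DNA-binding partner of Notch) and CAGCTG (an E-box), on both strands, from 250 bases before to 50 bases after the RefSeq start (GRCm38.p6). The Ptcra window held both motifs. A match of each is printed here with those of Cd3e and Rag1, which rose as well. Cd3g, which rose too, held a match of each that is not printed. No match was found for Cd3d, Rag2, Dtx1 or Notch3, which also rose, and no E-box match for Cd3e. A gene without a window could give no match. Windows were available for 5 of 7 pre-TCR genes, 7 of 11 Notch genes and 10 of 12 recombination genes. Capitals mark the motif, and the letters read 5′ to 3′ on the gene's strand, which is the minus strand in each case.

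Ptcra, RBPJ core, chr17:46763781-46763806: cagaaagcacTGGGAActagggggta
Ptcra, E-box, chr17:46763676-46763701: ctcagagctgCAGCTGggcctgtggc
Cd3e, RBPJ core, chr9:45009719-45009744: ttcatccttaTGGGAAggctgtgagg
Rag1, RBPJ core, chr2:101649569-101649594: tgtgggagagTGGGAAgggcagtgag
Rag1, E-box, chr2:101649645-101649670: agccaggtgcCAGCTGgagctggggg

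These letters are common. TGGGAA stood in the window of 28.3% and CAGCTG in that of 18.3% of the 27025 genes with a window. Among the genes that rose, 126 had a window, and 23% of them held TGGGAA and 25.4% CAGCTG. Among the genes that fell, 297 had a window, with 26.9% and 23.6%. A match is a description of these letters and not a measured binding site.

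The recombinase genes rose with the pre-TCR. Of 12 genes for recombination and end joining, 2 rose, Rag1 and Rag2, against 1.39% of all genes, and the list median was 0.85. Rag1 (chromosome 2, 101638282 to 101649501, minus strand) was at 4.60 and 1.36 CPM in DN2 KO and at 413, 335 and 236 CPM in DN3 KO, with no overlap. The rise was 6.79 ± 0.68 (adjusted p = 0.000618). Rag2, the partner subunit encoded next to Rag1, was at 43.8 and 45.3 CPM in DN2 KO and at 182, 169 and 200.3 CPM in DN3 KO (2.04 ± 0.29, adjusted p = 0.00411). Unlike Rag1, Rag2 was well measured in both DN2 KO libraries, and its libraries lay close together within each stage. Dntt, the polymerase that adds untemplated bases at junctions, was already at 1736 and 1706 CPM in DN2 KO. At DN3 it stood at 3185, 2708 and 3291 CPM and missed the threshold (0.83 ± 0.23, adjusted p = 0.0829), but was called without the libraries with the length trend (0.76, adjusted p = 0.0118). Xrcc6 and Lig4, which join DNA ends, likewise missed the threshold, with 1.14 (adjusted p = 0.133) and 1.66 (adjusted p = 0.485), and adjusted p = 0.027 and 0.0455 without these libraries.

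Several variable segments of Tcrb were low at DN2, while the sum over the segments overlapped between the stages. That sum was 109 and 214 CPM in DN2 KO and 201.5, 229 and 298 CPM in DN3 KO. The overlap came from DN2 KO replicate 2 (214 CPM), a library with the length trend, and the segments are short. Of 35 Trbv segments, 22 passed the filter on low counts and the other 13 were not tested. Of the 22, 9 rose and 1 fell, where 1.39% and 2.92% of all genes did so, and 14 rose and 1 fell without the libraries with the length trend. A segment without counts at DN2 could pass the filter only through its DN3 level, so these counts are a description. Trbv2, Trbv20 and Trbv29 had 0 counts in both DN2 KO libraries. Against the level of 3 counts over the DN2 KO group, they were at least 138-fold, 106-fold and 130-fold higher in DN3 KO. Trbv13-1 had 1 count in DN2 KO and was at 10.8, 12.7 and 13.2 CPM in DN3 KO, a ratio of 756 with a counting interval of 135 to 2.99e+04. Trbv19 was at 0.28 and 0.45 CPM and then at 14.9, 13.5 and 22.9 CPM (5.51 ± 0.98, adjusted p = 0.0106). The remaining segments that rose were Trbv1, Trbv3, Trbv23 and Trbv31, of which Trbv1, Trbv23 and Trbv31 lost the call in 7, 5 and 7 of the 11 fits that left out 1 library, each of them without any DN3 WT library or without DN3 KO replicate 2 or 3 (adjusted p up to 0.1). Without the libraries with the length trend, the changes of these 3 were 4.71, 4.17 and 4.58 against 3.31, 3.49 and 3.53 with the 5 libraries. Trbv13-2 was the exception, with 70.9 and 103.5 CPM in DN2 KO and 42.9, 38.4 and 44.9 CPM in DN3 KO (-1.05 ± 0.25, adjusted p = 0.042). Of the 11 fits that left out 1 library, it kept that call only in the one without DN2 KO replicate 1 (adjusted p = 0.0653 to 0.165 in the other 10). It was also lower without both libraries with the length trend and by DESeq2. Segments of 1 family are near-identical in places, so the sharing of counts between them is uncertain. In WT, 18 of the 22 were called higher and none lower. In KO, 18 of the 22 were higher in every DN3 KO library and 1 was lower, against 13.4% and 11.6% of all genes. A direct test of the KO stage change against the WT stage change gave 0 calls in edgeR. The segments are therefore not shown to differ between the genotypes.

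Notch signalling genes changed in part. Of 10 Notch genes tested, 2 rose, Dtx1 and Notch3, against 1.39% of all genes, and the list median was 0.72. In the fit without the libraries with the length trend 4 rose, with Notch1 and Myc in addition (Myc 0.83, adjusted p = 0.0405). Dtx1, a Notch target that encodes the ligase Deltex, was at 6.53 and 3.72 CPM in DN2 KO and at 104, 128 and 86.7 CPM in DN3 KO. This rise of 4.38 ± 0.40 (adjusted p = 0.000403) kept its call without any 1 of the 11 libraries. Notch3, a receptor and itself a Notch target, was at 48.3 and 9.97 CPM and then at 489, 418 and 126.5 CPM (3.56 ± 0.78, adjusted p = 0.0305). Its call was lost without DN2 KO replicate 2, DN3 KO replicate 1 or 2, DN2 WT replicate 1 or any DN3 WT library (adjusted p = 0.0518 to 0.0915). Notch1, the main receptor at this stage, overlapped between the stages, and each library with the length trend was the lowest of its stage. It was at 436 and 35.8 CPM in DN2 KO and at 1305, 997 and 249 CPM in DN3 KO (1.85 ± 0.90, adjusted p = 0.281). Without these libraries it was called (1.39 ± 0.22, adjusted p = 0.00562). Hes1, a canonical Notch target, showed no ordered difference, with 29.5 and 65.5 CPM against 23.7, 26.3 and 96.0 CPM.

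Among 12 T lineage transcription factors, Lef1 and Ets2 rose and none fell, against 1.39% and 2.92% of all genes, with a median of 1.5. Lef1, a partner of beta-catenin needed in early thymocytes, was at 17.5 and 3.18 CPM in DN2 KO and at 605, 519 and 191 CPM in DN3 KO (5.41 ± 0.80, adjusted p = 0.00448). Ets2 was at 17.5 and 3.85 CPM and then at 204, 172 and 117 CPM (3.95 ± 0.61, adjusted p = 0.00563). Both were called without any 1 of the 11 libraries. Tcf7 and Ets1 were higher in every DN3 KO library without passing the test (1.72 and 1.79, adjusted p = 0.22 and 0.186), and were called without the libraries with the length trend (1.14 and 1.26, adjusted p = 0.006 and 0.000658), as was Ikzf3 (adjusted p = 0.0229). Bcl11b, the commitment factor, overlapped between the stages at 264 and 23.4 CPM against 454, 426 and 157 CPM, and was called in neither fit. Gata3 and Runx1 overlapped too. Of the 6 E protein and Id genes, 1 rose and none fell, against 1.39% and 2.92% of all genes. Id3, an inhibitor of E proteins, rose from 10.2 and 30.2 CPM to 66.5, 67.0 and 115 CPM (2.03 ± 0.46, adjusted p = 0.0374). That call was lost without any 1 library other than the DN2 KO libraries (9 of 11 fits, adjusted p = 0.0577 to 0.0776) and held without the libraries with the length trend (2.71, adjusted p = 0.00021).

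Downstream of the receptor, 1 of 12 proximal signalling genes rose and none fell, against 1.39% and 2.92% of all genes. The member called was Zap70, the kinase recruited to the CD3 chains. It was at 11.1 and 5.48 CPM in DN2 KO and at 77.5, 77.6 and 75.2 CPM in DN3 KO (3.22 ± 0.45, adjusted p = 0.00381). Lck, Lat and Grap2 were called in addition without the libraries with the length trend (0.87, 0.95 and 1.16, adjusted p = 0.00291, 0.00985 and 0.0277). Cd28, the costimulatory receptor, which is used to mark cells past beta selection, was at 6.76 and 4.78 CPM and then at 141, 147 and 139 CPM (4.62 ± 0.35, adjusted p = 0.000153). The 3 DN3 KO libraries agreed closely for Zap70 and Cd28, the library with the length trend included. The other 5 markers of cells past beta selection were not called, among them Cd27 at 136 and 128 CPM in DN2 KO and 160, 124 and 132 CPM in DN3 KO.

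**Figure D1:**
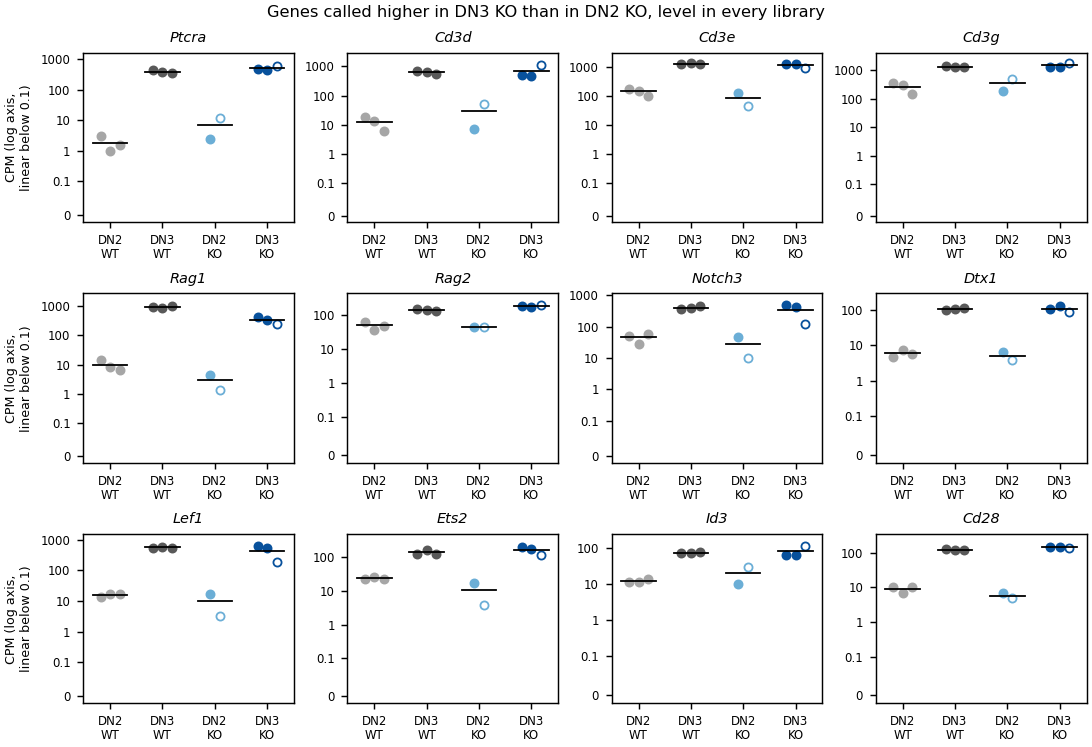
Level (CPM on a log axis that is linear below 0.1) of 12 genes called higher in DN3 KO, in the DN2 WT, DN3 WT, DN2 KO and DN3 KO libraries. Points are libraries, open points are DN2 KO replicate 2 and DN3 KO replicate 3, and bars are group means. In each panel the 3 DN3 KO points lie above both DN2 KO points, and those of Cd28 lie at 139 to 147 CPM.

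The largest rises came from genes at or near 0 at DN2. The rule for named genes took called genes with a mean of at least 10 CPM in either KO group. Their KO libraries had to be free of overlap between the stages. Their direction had to be the same without the libraries with the length trend. T cell receptor and immunoglobulin segments and pseudogenes were left out. Among these genes, the 10 with the highest fitted change were Scn4b, Fam163b, Slc5a9, Syt13, Atoh8, Cpsf4l, Rps6kl1, Tenm1, Egr1 and Rag1. Scn4b, a sodium channel beta subunit, had no count in DN2 KO and was at 137, 129.5 and 97.4 CPM in DN3 KO, at least 2.54e+03-fold higher. Fam163b had no count in DN2 KO and was at 145, 124 and 63.3 CPM in DN3 KO (at least 2.32e+03-fold). Slc5a9, a sugar transporter, went from 0 to 109, 98.4 and 79.3 CPM (at least 2e+03-fold). These 3 genes had no count at all in DN2 KO and were measured in every DN3 KO library. Syt13, Atoh8 and Cpsf4l were likewise at 0 in both DN2 KO libraries, with bounds of 439-fold, 258-fold and 233-fold. Egr1, an immediate early gene induced by receptor signals, was at 0 and 0.21 CPM in DN2 KO and at 27.2, 28.0 and 8.88 CPM in DN3 KO (7.44 ± 1.51, adjusted p = 0.0215), a call lost without DN3 KO replicate 1 or 2 (adjusted p = 0.0623 and 0.0653). Rps6kl1 moved from 8.25 to 7.32 without the libraries with the length trend. A gene at 0 in DN2 KO could be named here only through its DN3 KO level, so these values are a description. In all, 51 of the 191 genes that rose had no count in either DN2 KO library. Of all 13780 genes tested, 226 had no count there and a DN3 KO mean above the level of 3 counts. The median log2 fold change of the 191 was 4.38, or 3.95 with those genes set at their bound.

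Some progenitor transcription factors fell. Of 14 such factors, 6 fell and none rose, against 2.92% and 1.39% of all genes, and 7 overlapped between the stages, with a list median of -3.52, or -2.50 with the genes at 0 set at their bound. Spi1, which encodes the myeloid factor PU.1, was at 44.6 and 42.7 CPM in DN2 KO and at 2.02, 1.96 and 0.81 CPM in DN3 KO. Its fall of 4.75 on the log2 scale (SE 0.54, adjusted p = 0.00122) held without any 1 of the 11 libraries. Lyl1, a basic helix-loop-helix factor of progenitors, was at 10.3 and 8.10 CPM in DN2 KO and had no count in the 3 DN3 KO libraries, at least 166-fold lower. Hhex, a homeobox factor, fell from 30.4 and 28.1 CPM to 0.43, 0.27 and 0.40 CPM (-6.29 ± 0.62, adjusted p = 0.000572). For these 3 genes both DN2 KO libraries gave nearly the same level. Mycn was at 134 and 58.2 CPM and then at 21.7, 21.3 and 14.5 CPM (-2.33 ± 0.35, adjusted p = 0.005).

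Hoxa9 and Lmo2 had low levels, with Hoxa9 at 1.42 and 10.2 CPM in DN2 KO and at 0.34, 0.16 and 0.32 CPM in DN3 KO. They were called (adjusted p = 0.0406 and 0.041) and lost the call in 8 of the 11 fits that left out 1 library, among them every KO library other than DN2 KO replicate 1 and DN3 WT replicates 1 and 3 (adjusted p up to 0.3 and 0.183), and without both libraries with the length trend (adjusted p = 0.267 and 0.201). Tal1 narrowly missed the threshold. It was at 3.54 and 1.15 CPM in DN2 KO and had 2 counts over DN3 KO, a ratio of 57.2 with a counting interval of 15.5 to 477. Bcl11a, Gfi1b, Mef2c and Erg were not called with the 5 libraries and were called lower without the libraries with the length trend (adjusted p = 0.0332, 0.0188, 0.0126 and 0.0127).

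Of 13 innate and granule genes, 11 were tested, of which 6 fell and none rose, against 2.92% and 1.39% of all genes, while 3 overlapped between the stages. The median was -4.69. Mpo, myeloperoxidase of granulocyte precursors (chromosome 11, 87793581 to 87804413), was at 219 and 41.3 CPM in DN2 KO and at 0.21, 0.11 and 0.08 CPM in DN3 KO (-9.77 ± 1.14, adjusted p = 0.0014). Cpa3, a mast cell protease, was at 841 and 400.2 CPM and then at 11.9, 5.01 and 4.60 CPM (-6.43 ± 0.58, adjusted p = 0.000401). Tyrobp, the signalling adaptor DAP12, was at 53.2 and 203 CPM and then at 0.17, 0.54 and 0.81 CPM (-8.04 ± 0.73, adjusted p = 0.000403), and its change was -7.26 without the libraries with the length trend. Mpo and Tyrobp were thus below 1 CPM in every DN3 KO library, while Cpa3 remained well measured. Fcer1g, another signalling adaptor, fell from 22.8 and 47.9 CPM to 2.66, 0.60 and 1.86 CPM (-4.36 ± 0.71, adjusted p = 0.00699). The granule proteases Ctsg and Gzmb had no count in DN3 KO, at least 363-fold and 194-fold lower. Gzma did the opposite. It was at 35.2 and 123 CPM in DN2 KO and at 186, 202.5 and 486 CPM in DN3 KO, did not pass the test (1.88 ± 0.60, adjusted p = 0.118), and was called higher without the libraries with the length trend (2.46, adjusted p = 0.0036). In that fit Zbtb16 was called lower in addition (-5.28, adjusted p = 0.0127).

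Some markers of other cell types were lower at DN3 as well, and others were not. In bulk libraries, fewer cells of a type and less RNA per cell cannot be told apart. The 7 myeloid markers summed to 134 and 356.5 CPM in DN2 KO and to 34.7 to 47.6 CPM in DN3 KO. Of the 7, 2 were called lower and none higher, against 2.92% and 1.39% of all genes. The members called were Tyrobp and Fcer1g, which are also in the innate list. Lyz2, a lysozyme of macrophages and granulocytes, was at 53.3 and 105 CPM in DN2 KO and at 34.8, 32.7 and 44.9 CPM in DN3 KO without passing the test (adjusted p = 0.102). Csf1r was at 0.94 and 0.05 CPM in DN2 KO and listed at 0 in DN3 KO. S100a8 and S100a9 were at or below 0.56 CPM in all 5 KO libraries. Erythroid markers summed to 346 and 1575 CPM in DN2 KO and to 43.9 to 160 CPM in DN3 KO. Of these 5, only Hbb-bt was called lower (210.5 and 1228 CPM against 4.77, 3.54 and 11.9 CPM). It made up most of the DN2 KO sum. Its change was -6.74, or -5.66 without the libraries with the length trend. Hbb-bs, Hba-a1, Hba-a2 and Alas2 were not called (adjusted p = 0.23, 0.29, 0.30 and 0.59), and all but Hba-a2 overlapped between the stages. The part of myeloid and erythroid cells in the fall of the innate genes was not tested.

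Of the 8 gamma delta T cell markers, 1 was called lower and none higher, against 2.92% and 1.39% of all genes. The member called lower at DN3 was Tcrg-C1. It was at 1997 and 4907 CPM in DN2 KO and at 594, 387 and 712 CPM in DN3 KO (-2.61 ± 0.39, adjusted p = 0.00448). Trdc, the delta constant segment, was higher in every DN3 KO library without passing (217 and 138.5 CPM against 267, 235 and 228 CPM, adjusted p = 0.353). The 6 markers of CD4+CD8+ double-positive thymocytes gave no call, and 5 were higher in every DN3 KO library, where 13.4% of all genes were. Their sum was 131 and 43.5 CPM in DN2 KO and 276 to 452 CPM in DN3 KO, most of it Themis (2.24 ± 0.57, adjusted p = 0.055), while Cd4 and Cd8a stayed at 5.71 and 6.78 CPM or below. Cd8b1 was at 1.61 and 0 CPM in DN2 KO and at 8.33, 13.9 and 4.12 CPM in DN3 KO. Themis and Cd8b1 were called higher without the libraries with the length trend (1.68 and 2.78, adjusted p = 0.00106 and 0.0435). Of the 5 B cell markers, Pax5, which defines B cells, was at 0 in the 5 KO libraries, and Cd79a, Ms4a1 and Ebf1 were at or below 0.35 CPM. Cd79b was at 39.7 and 63.6 CPM in DN2 KO and at 61.0, 46.1 and 71.6 CPM in DN3 KO and was not called. Of the stromal markers, Epcam, which thymocytes also express, was at 5.35 and 7.72 CPM in DN2 KO and at 34.7, 54.4 and 107 CPM in DN3 KO (adjusted p = 0.0511), and Krt5, Krt8, Col1a1 and Col3a1 were at or below 0.33 CPM.

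The stage markers were set beside the labels, on lists chosen with earlier results of these data known. Of the 10 DN3 markers, 8 rose and none fell, against 1.39% and 2.92% of all genes. These 8 are also counted in the lists above. The markers of DN2 were mixed, with 1 of 8 called lower and none higher. Cd44, whose protein served as the sorting gate and is no independent finding, was at 79.2 and 55.6 CPM in DN2 KO and at 6.10, 7.08 and 13.1 CPM in DN3 KO (-2.95 ± 0.41, adjusted p = 0.00369), and its change was -3.60 without the libraries with the length trend. Kit was at 553 and 66.6 CPM in DN2 KO and at 73.6, 61.2 and 24.5 CPM in DN3 KO, so that DN2 KO replicate 2 lay within the range of DN3 KO, and it was not called (-2.54 ± 0.71, adjusted p = 0.0791). Without the libraries with the length trend it was called (-3.04 ± 0.25, adjusted p = 0.000166). Il2ra, which encodes CD25, overlapped at 1166 and 144 CPM against 1611, 1354 and 527 CPM.

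Receptors for cytokines fell in 2 of 12 cases and rose in none, against 2.92% and 1.39% of all genes, and fell in 3 without the libraries with the length trend, with Kit in addition. Il4ra was at 83.4 and 63.3 CPM in DN2 KO and at 5.84, 3.00 and 6.05 CPM in DN3 KO (-3.88 ± 0.39, adjusted p = 0.000647). Il1r1, a receptor of interleukin-1, was at 7.23 and 2.73 CPM and then at 0.26, 0 and 0.08 CPM (-5.29 ± 0.85, adjusted p = 0.00658). Both were called without any 1 of the 11 libraries. Il7r, the receptor that sustains DN2 cells, overlapped between the stages at 170 and 17.4 CPM against 124, 103.5 and 51.5 CPM.

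Adhesion and homing genes fell in 4 of 11 cases and rose in none, against 2.92% and 1.39% of all genes, and 4 fell and 2 rose without the libraries with the length trend. Itgb7, the integrin beta 7 chain, was at 156 and 85.1 CPM in DN2 KO and at 3.95, 6.75 and 2.99 CPM in DN3 KO (-4.72 ± 0.45, adjusted p = 0.000459). S1pr3, a sphingosine phosphate receptor, was at 26.7 and 6.52 CPM and then at 0.34, 0.76 and 0.08 CPM (-5.33 ± 0.78, adjusted p = 0.00441). Klf2, a transcription factor of T cell migration, was called (-3.91, adjusted p = 0.0487) and lost the call without any 1 DN3 library, DN2 KO replicate 2 or DN2 WT replicate 2 (adjusted p = 0.0535 to 0.18). Its change was -5.03 without the libraries with the length trend. Ccr9, a chemokine receptor of thymocytes, was at 13.5 and 0.35 CPM in DN2 KO and at 173.5, 100.7 and 80.0 CPM in DN3 KO without passing the test (4.09 ± 1.17, adjusted p = 0.0857). Ccr9 and Itgae, an integrin chain, were called higher without the libraries with the length trend (3.33 and 2.62, adjusted p = 0.0111 and 0.017).

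**Figure D2:**
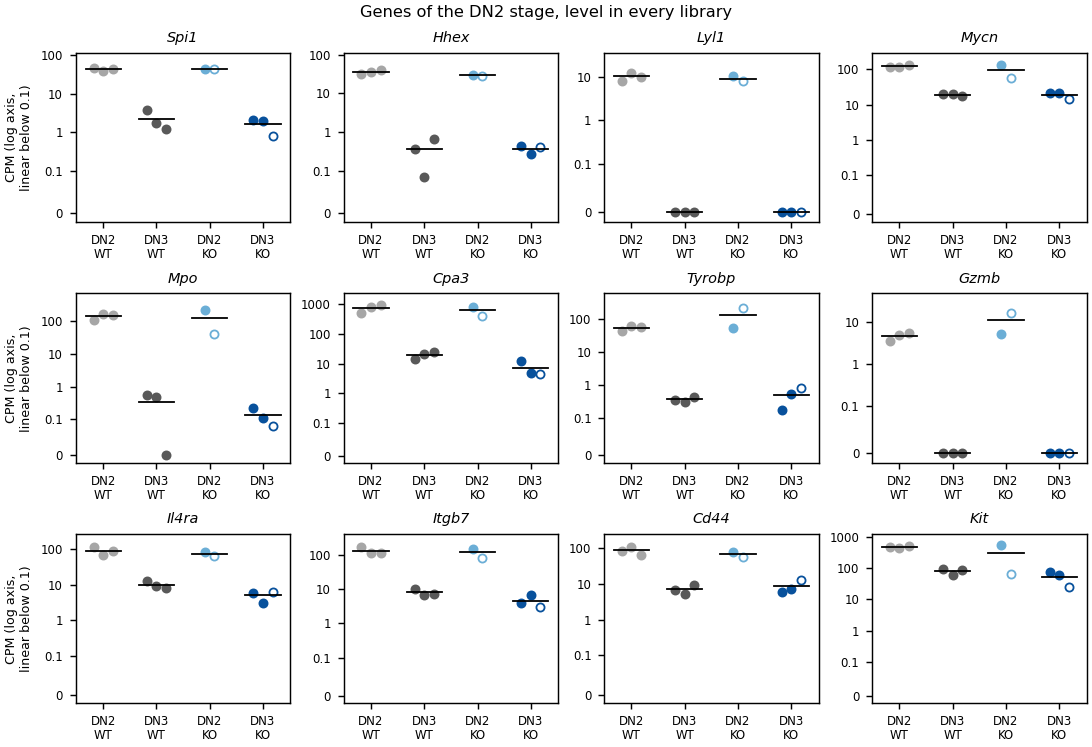
Level (CPM on a log axis that is linear below 0.1) of 12 genes of the DN2 stage in each library, drawn as in the plot of rising genes, with open points for DN2 KO replicate 2 and DN3 KO replicate 3 and bars for group means. In 11 panels every DN3 KO point lies below both DN2 KO points, and in the panel for Kit DN2 KO replicate 2, at 66.6 CPM, falls within the DN3 KO range.

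By the same rule for named genes, the 10 with the lowest fitted change were Fgf3, Serpina3g, Ctsg, Ifitm1, Gzmb, Cldn2, Ctla2b, Mpo, Clec4d and Gm49391. Fgf3, a fibroblast growth factor, was at 70.1 and 59.7 CPM in DN2 KO and had no count in DN3 KO, at least 1.17e+03-fold lower. Serpina3g, a serine protease inhibitor, was at 13.1 and 31.8 CPM and then at 0 (at least 404-fold lower), and Cldn2, a tight junction protein, at 9.83 and 10.9 CPM and then at 0 (at least 187-fold). Fgf3 and Cldn2 gave close values in the DN2 KO libraries although these differ in the length trend. Ifitm1, an interferon-induced membrane protein, was at 35.6 and 187 CPM in DN2 KO and had 2 counts over DN3 KO, a ratio of 3.4e+03 with a counting interval of 941 to 2.81e+04. A gene at 0 in DN3 KO could be named here only through its DN2 KO level. Of the 403 genes that fell, 18 had no count in DN3 KO, and the median log2 fold change of the 403 was -2.93. Of all 13780 genes tested, 77 had no count in DN3 KO and a DN2 KO mean above the level of 3 counts.

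Several programmes gave no call. Among 11 survival genes, 15 glycolysis genes and 10 genes of Polycomb and DNA methylation, none was called with the 5 libraries or without those with the length trend, and the list medians were -0.09, 0.02 and 0.46. Of 23 cell cycle genes, 1 fell and none rose, against 2.92% and 1.39% of all genes. Ccnd3, which encodes cyclin D3, fell from 926 and 861 CPM to 382, 499 and 339 CPM (-1.14 ± 0.25, adjusted p = 0.029). The call was lost without DN3 KO replicate 1 or 3, DN2 WT replicate 1 or 3 or any DN3 WT library (adjusted p = 0.0541 to 0.119). Ccnd2 was called higher without the libraries with the length trend (0.84, adjusted p = 0.0187). The list median was -0.36, and 17 of the 23 genes had a negative change, where 6739 of all 13780 genes tested did. The 82 ribosomal protein genes gave no call, with a median of -0.58 in the 5 libraries and 0.31 without those with the length trend, a change of sign.

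**Figure D3:**
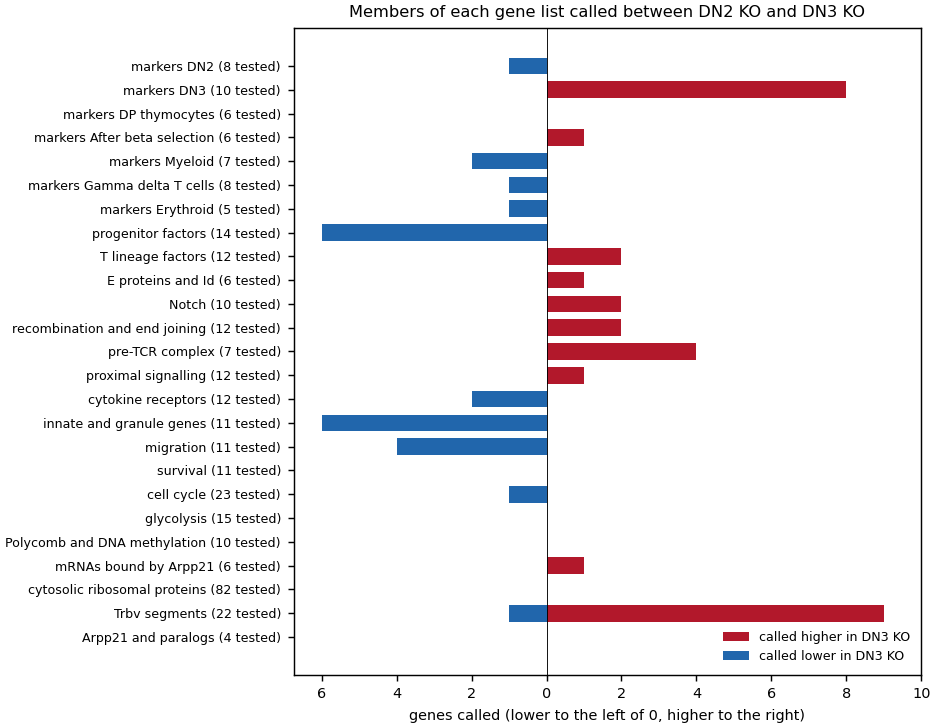
Number of genes called lower (left of 0) and higher (right of 0) in DN3 KO than in DN2 KO in each gene list with at least 4 genes tested. The bars reach 9 higher for Trbv segments and 8 for DN3 markers, and 6 lower for progenitor factors and for innate and granule genes, while survival, glycolysis, Polycomb and ribosomal lists have no bar.

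Arpp21 mRNA itself was at 86.9 and 28.5 CPM in DN2 KO and at 335, 221 and 142 CPM in DN3 KO. The groups did not overlap, and the change missed the threshold (2.01 ± 0.51, adjusted p = 0.056) and was called without the libraries with the length trend (1.67 ± 0.30, adjusted p = 0.0109). In WT it stood at 148 ± 30.9 CPM at DN2 and at 344 ± 37.7 CPM at DN3 (mean ± SD, n = 3). Counts per gene cannot check the deletion of a single exon, so they do not test the genotype labels. The transcript Arpp21-218 made up 14.6% and 16.2% of the gene's TPM in DN2 KO and 18.6%, 24.9% and 37.4% in DN3 KO, against at most 4.78% in the 6 WT libraries. Arpp21-218 is a noncoding model on chromosome 9 (112180978 to 112187949, GRCm38). The protein-coding Arpp21-229 and Arpp21-221 went the other way. They made up 6.73% to 20.6% and 5.43% to 7.39% in the 6 WT libraries, and at most 3.01% and 1.65% in the 5 KO libraries. Shares of other transcripts overlapped between the genotypes, such as Arpp21-219. How reads are divided between overlapping transcripts is an estimate, and these shares were not tested. The paralogs R3hdm1, R3hdm2 and R3hdm4 were not called.

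Of 6 mRNAs described as bound by Arpp21, Rag1 rose, against 1.39% of all genes, and Phf6, Lin7c, Tgfbr1, Rc3h1 and Rc3h2 were not called. Lin7c was at 121 and 154 CPM in DN2 KO and at 135, 119 and 147 CPM in DN3 KO. The WT means were 133 ± 9.79 and 216 ± 11.4 CPM (SD, n = 3). Tgfbr1, a receptor of transforming growth factor beta, was at 121 and 208 CPM and then at 153, 114 and 181 CPM in KO, with WT means of 152 ± 9.03 and 289 ± 22.0 CPM. The difference between the KO and the WT change was -0.74 for Lin7c and -1.07 for Tgfbr1 and did not pass adjustment (unadjusted p = 0.0387 and 0.0219 in edgeR). For Rag1, the WT means were 9.81 ± 4.17 CPM at DN2 and 914.5 ± 53.7 CPM at DN3 against KO means of 2.98 ± 2.29 (n = 2) and 328 ± 89.0 CPM (n = 3). The stage change was 6.54 ± 0.56 in WT and 6.79 ± 0.68 in KO, a difference of 0.25 (unadjusted p = 0.716).

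Shares of some single transcripts of Runx1 and Tcf12 differed between the stages. For Runx1 the gene sum was not called, but the long transcript Runx1-201 was at 54.6% and 26.2% of the gene's TPM in DN2 KO and at 66%, 65.9% and 58.7% in DN3 KO, and the short Runx1-204 was at 32.1% and 45.8% and then at 16.9%, 15.8% and 10.4%. For Tcf12, which encodes the E protein HEB, Tcf12-201 was at 16.9% and 11.3% in DN2 KO and at 32.3%, 29.3% and 27.5% in DN3 KO, and Tcf12-215 at 21.9% and 35.2% and then at 7.22%, 2.49% and 5.71%. These shares did not overlap between the stages. In both genes the shorter transcript was highest in DN2 KO replicate 2, a library with the length trend, whose part in these shares was not tested. They are a selection, since shares of other transcripts overlapped. Tcf12-220 was at 17.1% and 7.49% in DN2 KO and at 6.73%, 8.96% and 9.88% in DN3 KO. Runx1-202 and Ikzf1-204 overlapped too. At the level of whole genes, 13.4% were higher and 11.6% lower in every DN3 KO library.

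The same stages in WT gave 256 genes higher (1.86%) and 306 lower (2.22%). Of the 191 genes that rose in KO, 146 rose in WT (76.4% of the KO rises and 57% of the WT rises), and of the 403 that fell in KO, 251 fell in WT (62.3% and 82%). The KO and WT transitions share no library. Both were tested in 1 fit with a spread estimated over all 11 libraries, so their calls are not independent. Of the called KO genes, 189 of 191 and 402 of 403 had the same sign in WT, and none was called the opposite way. Across all genes tested, which are not independent, the log2 fold changes in KO and WT had r = 0.701. Ptcra, Rag1, Spi1 and Mpo moved by 7.76, 6.54, -4.25 and -8.68 in WT against 6.15, 6.79, -4.75 and -9.77 in KO.

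**Figure D4:**
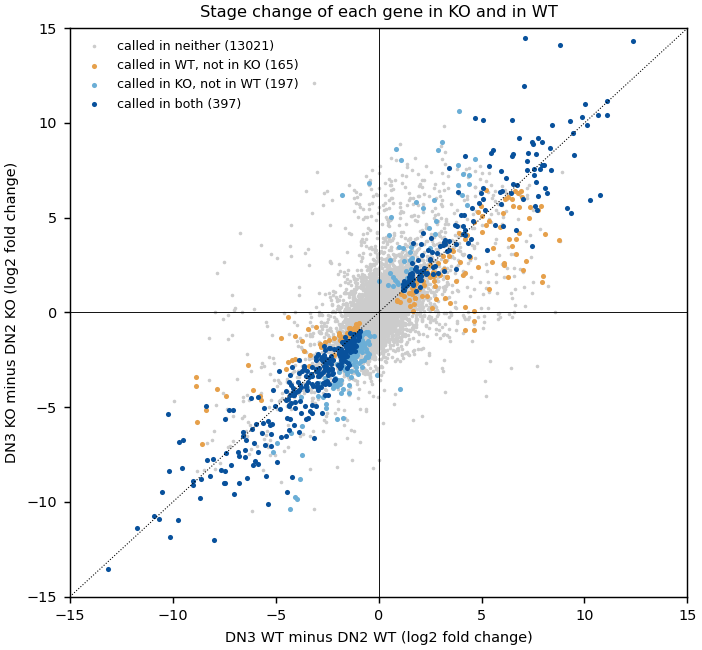
Log2 fold change from DN2 to DN3 of each of 13780 genes in KO (y axis) against WT (x axis), with the line of equal change dotted. Dark blue marks the 397 genes called in both, light blue the 197 called in KO and not in WT, and orange the 165 called in WT and not in KO. Genes called in both lie in the upper right and lower left quadrants.

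Whether a gene changed more or less in KO than in WT was tested by the interaction of stage and genotype. It gave 0 calls in edgeR (0%), with 373 genes at an unadjusted p under 0.05 and a lowest adjusted p of 0.964. DESeq2 called 10 genes and limma voom with quality weights 0. A call in 1 genotype only is therefore not shown to differ from the other. The 5 genes with the lowest interaction p were Gm47102, Trib2, Pgam2, Scin and Tmem116. Scin, which encodes the actin-severing protein scinderin, was at 1287 and 972 CPM in DN2 KO and at 42.0, 40.0 and 30.3 CPM in DN3 KO, a fall of 4.92 on the log2 scale (adjusted p = 5.34e-05). In WT it went from 815 ± 194 to 97.6 ± 6.63 CPM, a fall of 3.06. The interaction was -1.85 ± 0.39 (unadjusted p = 0.000685, adjusted p = 0.964).

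Trib2, a pseudokinase, was at 21.7 and 27.3 CPM in DN2 KO and at 37.1, 40.1 and 44.7 CPM in DN3 KO, and in WT at 4.79 ± 1.07 and 33.3 ± 5.29 CPM. Its change was 0.73 in KO and 2.80 in WT, a difference of -2.07 ± 0.40 (unadjusted p = 0.000421, adjusted p = 0.964). At DN2 the KO and WT libraries did not overlap. Pgam2, a phosphoglycerate mutase, was at 4.95 and 5.88 CPM in DN2 KO and at 6.87, 4.63 and 11.3 CPM in DN3 KO, so that the groups overlapped. In WT it rose from 2.70 ± 1.03 to 30.1 ± 4.36 CPM (3.48, adjusted p = 0.00199). These genes keep their values here as a description, since none passed adjustment in edgeR.

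The length trend moved with the stage change in KO. With the genes in 5 classes of 2756 by transcript length, the median stage change in KO went from -0.72 in the shortest class to 0.57 in the longest. Without DN2 KO replicate 2 and DN3 KO replicate 3 the medians were 0.01, -0.04, 0.00, 0.05 and 0.23, and in WT they ran from -0.10 to 0.15. Genes that rose in KO had a median transcript length of 2762 nt and genes that fell 1960 nt, against 2614 nt over all genes tested. Ptcra (1283 nt) and 9 Trbv segments (list median 369 nt) rose and are short. When each library's own length trend was fitted and entered as an offset, 330 genes rose and 566 fell, and with an offset for the authors' effective lengths 195 rose and 387 fell.

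**Figure D5:**
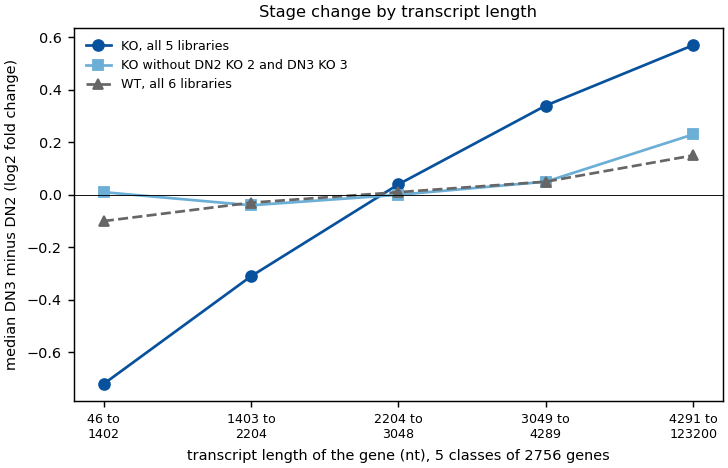
Median log2 fold change from DN2 to DN3 in 5 classes of 2756 genes by transcript length (nt), for the 5 KO libraries, the KO libraries without DN2 KO replicate 2 and DN3 KO replicate 3, and the 6 WT libraries. The line of the 5 KO libraries climbs from -0.72 to 0.57, while the other lines stay between -0.10 and 0.23.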

How the data were processed

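RNA-seq libraries were made with SmartSeq V4 and Nextera and sequenced in paired ends, per the labels. The authors quantified transcripts with kallisto 0.46 on GRCm38 and deposited, for each of 119414 transcripts, estimated counts, TPM and an effective length. Estimated counts were summed per gene (116728 transcripts matched a gene of GENCODE M21) and rounded. Genes passing filterByExpr (count 10, total 15) were fitted with edgeR 4.0.16 in R 4.3.3 (TMM, quasi-likelihood, 4 groups, 11 libraries, two-sided), and p-values were adjusted by Benjamini-Hochberg over all genes tested. SEs were taken from the log2 fold change and its F statistic and are approximate. TPM entered limma 3.58.1 as log2(TPM + 1) or log2(TPM + 0.1), and the authors' effective lengths entered as offsets in an alternative. DESeq2 1.42.0 was another. The script was tested on simulated data: at the spread of these libraries, DN3 KO against DN2 KO recovered 0% of genes changed 2-fold, 8% at 4-fold and 68% at 16-fold. CPM are TMM-scaled. Intervals and bounds of low counts are 95% and cover counting error only. Genes were named by list membership, by the 10 largest changes in each direction and by the 5 lowest interaction p-values, and the lists and members were chosen with earlier results of these data known. Protein sequences were not used here, and 1 gene counted among the adhesion and homing genes is not reported by name.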

Additional observations from a re-analysis of the deposited data

Results flagged for a closer look

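Tcrg-C4, a gamma constant segment, was flagged among the named and listed genes, the only ones screened. Every DN3 KO library lay below both DN2 KO libraries, while every DN3 WT library lay above every DN2 WT library. It was at 336 and 321.5 CPM in DN2 KO and at 230.5, 175 and 169 CPM in DN3 KO, against 243 ± 26.5 and 298 ± 36.4 CPM (SD, n = 3) in DN2 WT and DN3 WT. The stage change in KO minus that in WT was -1.07 on the log2 scale (unadjusted p = 0.00864, adjusted p = 0.964 in edgeR's interaction test). Neither stage change was called on its own (adjusted p = 0.116 in KO and 0.744 in WT). The other gamma constant segments listed, Tcrg-C1 and Tcrg-C2, had differences of -1.19 and -1.18 (unadjusted p = 0.0422 and 0.0268, adjusted p = 0.964 for each). Both rest in part on DN2 KO replicate 2, a library with the length trend. Tcrg-C1 and Tcrg-C2 were at 4907 and 2286 CPM there, against 1997 and 952.5 CPM in DN2 KO replicate 1. Without the libraries with the length trend, their KO stage changes were -2.04 and -0.53, against -2.61 and -1.28 with the 5 libraries. That of Tcrg-C4 was -0.74 against -0.78. Gamma constant segments are close in sequence, so the division of reads between them is uncertain.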

How the results depend on the processing

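All alternatives were planned. Counts are given as genes higher and lower in DN3 KO than in DN2 KO, where the main counts were 191 and 403. DESeq2 gave 654 and 947, voom with quality weights 6 and 134, edgeR on the 5 KO libraries alone 0 and 0, and an adjusted p under 0.1 gave 359 and 634. Higher genes numbered 127 with a filter of 10 CPM in 2 libraries, 330 with an offset for the length trend, 124 against a fold of 1.5 and 313 without both libraries with the length trend, and lower genes 239 and 236 by limma on log2(TPM + 1) and log2(TPM + 0.1). Leaving out 1 library gave 85 to 3688 higher and 190 to 3066 lower. The highest counts came without DN2 KO replicate 1, where a library with the length trend stands alone for DN2 KO, and without any other library they were at most 198 and 367. Same-numbered DN2 and DN3 libraries deviated with correlations of 0.70, 0.27 and 0.568 in WT and of 0.749 and -0.783 in KO. Of 10 libraries, 6 correlated best with their partner. The deviations of the 2 DN2 KO libraries from their mean mirror each other, so the KO values cannot decide on pairing. The main fit took the samples to share only a number, and whether they are paired was not settled. A replicate block on the number gave 133 and 281, and a replicate block on genotype and number 39 and 81.

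In WT, where the main counts were 256 higher and 306 lower, DESeq2 gave 572 and 620, voom 1035 and 1289, the block on genotype and number 82 and 134, and the fit without both libraries 1013 and 1213. The 10 CPM filter gave 154 higher, an adjusted p under 0.1 gave 389 higher, and the length trend offset 481 lower. Leaving out 1 library gave 118 to 493 higher and 125 to 587 lower. The interaction of stage and genotype gave 0 calls except in DESeq2 with 10 and without DN2 KO replicate 1 with 3664, so that leaving out 1 library spanned 0 to 3664. Genes with no overlap, 1843 higher and 1601 lower, numbered 880 and 1052 with the 10 CPM filter and 5881 and 5241 without both libraries, where 2 libraries face 1. Leaving out 1 KO library gave 2107 to 5960 and 1750 to 5227.

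Of the 113 genes followed, 63 were called, and 50 of these were called in each of the 11 fits that left out 1 library. The block on genotype and number ended the call of 32 of the 63, voom with quality weights that of 39, the block on the number that of 9, and edgeR on the KO libraries alone that of all 63. Erg and Il7r, not called in the main fit, turned to a called rise without DN2 KO replicate 1, ranging from -1.93 to 2.08 and from -0.90 to 2.43 over the libraries left out. The cause of these shifts was not tested beyond what each setting itself removes. At this spread the simulated recovery of 8% at 4-fold means that smaller stage changes were mostly not detectable.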

Other observations

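Some genes called in KO had interaction p-values under 0.05 that did not pass adjustment (adjusted p = 0.964 in edgeR for each). Slc5a9, Rps6kl1 and Gm47102 rose from DN2 KO to DN3 KO and S1pr3 fell. Slc5a9, a sugar transporter, was at 34.7, 51.4 and 36.1 CPM in DN3 WT and at 109, 98.4 and 79.3 CPM in DN3 KO, and at or below 0.174 CPM in all DN2 libraries (unadjusted p = 0.00543). Rps6kl1, a kinase-like protein, was at 1.57, 2.68 and 1.46 CPM in DN2 WT and at 0.16 and 0 CPM in DN2 KO, while the DN3 WT libraries lay at 32.9 to 35.3 CPM and the DN3 KO libraries at 27.1, 25.1 and 15.7 CPM (unadjusted p = 0.00191). S1pr3 was at 4.66, 3.20 and 3.18 CPM in DN3 WT and at 0.34, 0.76 and 0.08 CPM in DN3 KO, from 17.2 to 30.9 CPM in DN2 WT and 26.7 and 6.52 CPM in DN2 KO (unadjusted p = 0.0212). Gm47102, annotated as a processed pseudogene, was measured in all DN2 WT libraries at 1.15 to 2.27 CPM and had no count in DN2 KO, where 3 counts over the group allow 0.0477 CPM (unadjusted p = 0.000179). Reads of a pseudogene can be shared with its parent gene, so its level is uncertain.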
